A study of Mus musculus with 36 samples.

Results

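The muscle microRNAs (miRs) of the miR-1, miR-133, miR-206, miR-143 and miR-145 families were followed through the endothelial cells (ECs), the conditioned medium and the plasma of a mouse model of endothelial progeria. Members were chosen by name, as every mature miR of the tables named miR-1a, miR-133a, miR-133b, miR-206, miR-143 or miR-145a. This gave 13 of the 1907 miRs listed. The choice was made with earlier results of these data known. Prog-Tg mice carried Cdh5TA, a tetracycline-dependent activator driven by the endothelial VE-cadherin promoter, together with TetOp-LAG608G, a human lamin A minigene with the progeria mutation that makes progerin and also wild-type lamin A. LA-Tg mice carried Cdh5TA with TetOp-LA, the wild-type human lamin A minigene, and wild-type (WT) littermates were the controls. All mice were kept on a C57BL/6J background, and the activator came from an FVB line. Lung ECs were taken from mice of 10 to 15 days with ICAM-2 magnetic beads, and their RNA was prepared at passage 3. Medium was collected from cultures of lung ECs, and plasma came from mice of over 25 weeks. Each genotype had 3 libraries in each of 4 data sets, which were EC miR, medium miR, plasma miR and EC mRNA. The transgene was driven in ECs, so plasma also holds RNA of cells that carry it but do not express it.

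miRs are short RNAs that pair with messenger RNAs mainly through their seed, bases 2 to 8 of the mature strand, and lower the output of the messages they bind. The miR-1, miR-133 and miR-206 families are known as the striated muscle miRs. miR-1a and miR-133a are abundant in heart and skeletal muscle and are made from shared primary transcripts, and miR-206 and miR-133b are made from a locus that is active mainly in skeletal muscle. miR-143 and miR-145a come from a shared transcript too, and are best known for holding vascular smooth muscle cells and pericytes in their contractile state. ECs themselves are known for miR-126a and are not a main source of any of these families.

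The sequences below are those of 5 of the 13 members, as given in the RefSeq table of build GRCm38.p6. They are shown because the seed decides which messages a family can bind and because the results on the striated members turn on miR-206-3p. Capitals mark the seed, and sequences run 5′ to 3′.
miR-206-3p (chr1:20679055-20679076, plus strand): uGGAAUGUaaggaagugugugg
miR-133b-3p (chr1:20682834-20682855, plus strand): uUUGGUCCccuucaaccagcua
miR-206-5p (chr1:20679017-20679039, plus strand): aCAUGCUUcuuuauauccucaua
miR-133b-5p (chr1:20682797-20682818, plus strand): gCUGGUCAaacggaaccaaguc
miR-1a-1-5p (chr2:180389057-180389079, plus strand): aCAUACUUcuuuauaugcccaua
The 5 seeds all differed. The passenger strands miR-206-5p and miR-1a-1-5p had the same base at 20 of 23 positions, and miR-206-3p and miR-133b-3p at 4 of 22.

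The other members are miR-1a-3p, miR-1a-2-5p, miR-133a-3p, miR-133a-5p, miR-143-3p, miR-143-5p, miR-145a-3p and miR-145a-5p. In the annotation of that build Mir206 (20679010 to 20679082) and Mir133b (20682769 to 20682887) lie on chromosome 1 with 3686 bases between them. Mir1a-1 (180389048 to 180389124) and Mir133a-2 (180398379 to 180398482) lie on chromosome 2 with 9254 bases between them. The second copies Mir1a-2 and Mir133a-1, and Mir143 and Mir145a, lie on chromosome 18.

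Library totals ran from 2015256 to 19288343 counts for EC miR, 266683 to 1137332 for medium, 14922120 to 25373495 for plasma and 17961152 to 67602012 for EC mRNA. A count of 0 allowed up to 1.28 CPM (counts scaled to a library of 1000000) in the EC miR library with the highest such limit after TMM scaling, 9.77 CPM in that of medium and 0.281 CPM in that of plasma, where the limit is 3 counts and covers counting error only. In plasma only 104 to 172 miRs had a count. The features of miR-486, a miR abundant in red blood cells and also found in muscle, held 92.3 to 98.1% of all counts there. That is a share of counts and not of reads, since several of these features can count the same read. In medium these features held 68.9% in Prog-Tg replicate 1, 64.2% in LA-Tg replicate 1 and 50.6% in WT replicate 2, and 0.807 to 19.7% in the other libraries. The 3 high libraries carry consecutive library numbers in the labels. The EC miR libraries form 2 runs of consecutive numbers, and the run of Prog-Tg replicates 1 and 3, LA-Tg replicate 1 and WT replicate 1 held over 10000000 counts each. The endothelial marker miR-126a-3p ranked first in ECs, at 165474 to 477118 CPM. Lmna, the mouse gene of lamin A, had 431 ± 141 CPM in Prog-Tg ECs, 358 ± 92.7 CPM in LA-Tg ECs and 220.4 ± 55.9 CPM in WT ECs (SD, n = 3 each). How far reads of the human minigene enter that count was not tested. Libraries are separate samples in the labels, which do not state for each that it came from a separate culture or animal, so the tests measure the spread between libraries.

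Of the 13 members, 9 had a count in at least 1 of the 27 miR libraries. The 4 without any were passenger strands, miR-1a-1-5p, miR-1a-2-5p, miR-133b-5p and miR-206-5p. Members with a count numbered 8 in ECs, 9 in medium and 7 in plasma, and those that passed the filter on low counts numbered 7 of 446 miRs tested, 7 of 255 and 6 of 118. miR-1a-3p and miR-143-3p were counted in all 27 libraries. miR-206-3p had a count in 26, miR-133a-3p in 25, miR-133b-3p in 17, miR-145a-5p in 15, miR-133a-5p in 11, miR-143-5p in 9 and miR-145a-3p in 8.

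The leading member differed between cells and fluids. In ECs the smooth muscle miR-143-3p led the members at 869 CPM on average over 9 libraries, rank 60 of 1296 miRs with a count, ahead of miR-145a-5p at 111 CPM and miR-206-3p at 54.7 CPM (rank 184). The striated miRs miR-1a-3p and miR-133a-3p were low there, at 6.28 CPM (rank 337) and 1.72 CPM (rank 463). In medium miR-1a-3p led at 32616 CPM (rank 8 of 651), ahead of miR-133a-3p at 17983 CPM (rank 13) and miR-143-3p at 2169 CPM (rank 38). Plasma had the same order, with miR-1a-3p at 9067 CPM (rank 5 of 283), miR-133a-3p at 4459 CPM (rank 7) and miR-143-3p at 454 CPM (rank 18). EC libraries were made with another kit than the fluid libraries and were deposited in another table, so their levels are set side by side with no test. All CPM of miRs and genes are scaled by the trimmed mean of M values (TMM) unless said otherwise.

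**Figure D1:**
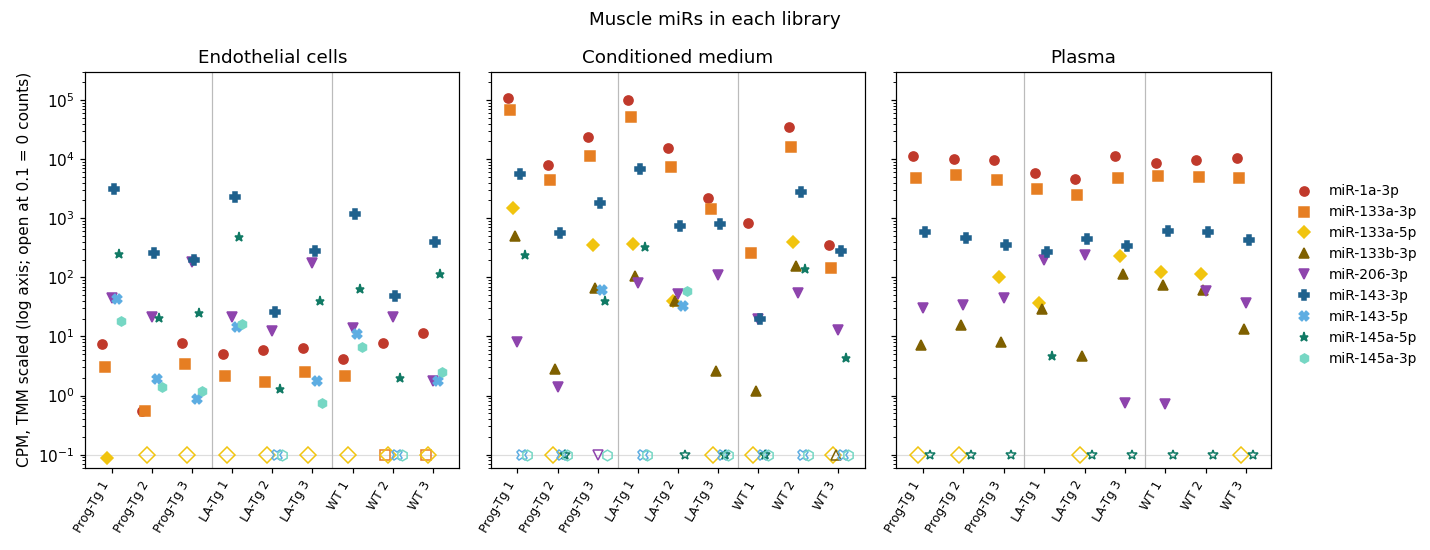
Level of each muscle miR (CPM scaled within each data set, log axis) in the 9 libraries of each data set, with Prog-Tg left, LA-Tg in the middle and WT right. Open symbols stand for a count of 0. miR-143-3p lies on top in ECs, and miR-1a-3p and miR-133a-3p lie on top in medium and plasma. The medium libraries spread over the widest range, 358 to 108340.0 CPM for miR-1a-3p.

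Counting shaped the levels of the members that have several loci. In the plasma and medium table miR-1b-5p, the mature strand of a gene that lies opposite Mir1a-2, had 0.499966 to 0.500302 of the count of miR-1a-3p in every library, within 2 counts. In the EC table that ratio was 0 to 0.214. Counts of miR-133a-3p, which has 2 loci, were even numbers in all 27 libraries, and those of miR-1a-3p in all 9 EC libraries. A read of these features may have been counted more than once, so their counts need not equal reads. Reads of these features cannot be told apart from the tables, so the level of miR-1a-3p or miR-133a-3p relative to a miR with 1 locus is uncertain, while a comparison of libraries within a table is on the same footing for all genotypes.

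miR-206-3p, a skeletal muscle miR that shares its seed with the miR-1 family, was the member whose Prog-Tg and WT libraries did not overlap in ECs. It had 44.2, 21.2 and 179 CPM in Prog-Tg replicates 1 to 3, 21.1, 12.4 and 177 CPM in LA-Tg, and 14.1, 21.1 and 1.79 CPM in WT. Every Prog-Tg library lay above every WT library, by a narrow margin between 21.2 and 21.1 CPM, and the highest values stood in replicate 3 of both transgenic genotypes. The groups averaged 81.6 ± 85.4 CPM in Prog-Tg, 70.2 ± 92.6 CPM in LA-Tg and 12.3 ± 9.77 CPM in WT (SD, n = 3 each). In edgeR the log2 fold change of Prog-Tg over WT was 2.72 with an SE of 1.22, and its adjusted p was 0.96 over 446 miRs. Of all miRs tested, 1.79% lay higher in Prog-Tg than in WT without overlap. LA-Tg against WT gave a log2 fold change of 2.51 (SE 1.21, adjusted p = 0.97 in edgeR), with overlapping groups, and Prog-Tg against LA-Tg gave 0.22 (SE 1.14, adjusted p = 0.98 in edgeR). The log2 fold change of Prog-Tg over WT was 1.36 without Prog-Tg replicate 3, and that of LA-Tg over WT was 0.37 without LA-Tg replicate 3.

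The other striated members had few reads in ECs. miR-1a-3p had 7.32, 0.549 and 7.72 CPM in Prog-Tg, 5.05, 5.99 and 6.44 CPM in LA-Tg and 4.13, 7.82 and 11.5 CPM in WT. Its counts were 2 to 166 a library, and the reads behind them may be fewer. The groups overlapped, and the log2 fold change of Prog-Tg over WT was −0.54 (SE 0.79, adjusted p = 0.97 in edgeR). miR-133a-3p had 0.549 to 3.46 CPM in Prog-Tg, 1.71 to 2.48 CPM in LA-Tg and 0 to 2.13 CPM in WT, with no count in WT replicates 2 and 3. Those WT libraries allowed up to 1.17 and 1.08 CPM at a count of 0, so values at the LA-Tg level lay only just above what those libraries could show. miR-133a-5p had a count of 2 in 1 EC library. miR-133b-3p had no count in ECs, although its neighbour miR-206-3p had 5 to 2695 reads.

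miR-143-3p and miR-145a-5p, the smooth muscle miRs, varied more between EC libraries of 1 genotype than between genotypes. miR-143-3p had 3135, 254 and 198 CPM in Prog-Tg, 2303, 26.1 and 278 CPM in LA-Tg, and 1173, 49.2 and 402 CPM in WT. miR-145a-5p had 253, 20.9 and 24.7 CPM in Prog-Tg, 479, 1.28 and 40.6 CPM in LA-Tg, and 64.6, 1.95 and 116 CPM in WT. Replicate 1 of each genotype held the highest miR-143-3p value, 1173 to 3135 CPM, and replicate 2 of LA-Tg and WT the lowest. The 3 high libraries belong to the run of library numbers with over 10000000 counts, and Prog-Tg replicate 3 of the same run had 198 CPM. The arms of miR-143 and miR-145a-5p moved together. Over the 9 libraries the log2 CPM of miR-143-3p and miR-145a-5p had Pearson r = 0.95 and Spearman rho = 0.95, and miR-143-3p and its passenger strand miR-143-5p had r = 0.99, while miR-143-3p and miR-206-3p had r = 0.03. These are descriptions over 9 libraries that share genotypes and depth runs. The log2 fold change of Prog-Tg over WT was 1.14 (SE 1.54, adjusted p = 0.96 in edgeR) for miR-143-3p and 0.71 (SE 1.67, adjusted p = 0.99 in edgeR) for miR-145a-5p. Without Prog-Tg replicate 1 they were −1.21 and −1.37. With the run of library numbers as a term, a setting chosen after the data were seen, they were 0.15 and −1.07.

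**Figure D2:**
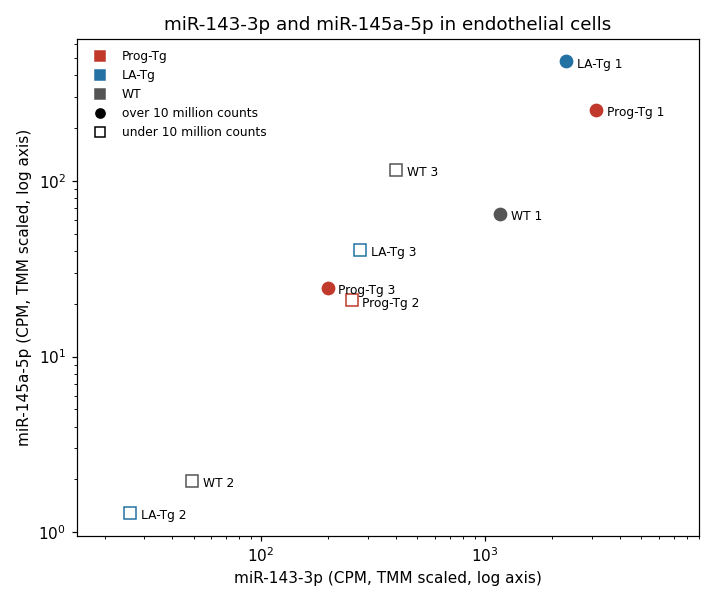
miR-145a-5p (vertical, CPM, log axis) against miR-143-3p (horizontal, CPM, log axis) in the 9 EC miR libraries, coloured by genotype and numbered by replicate, with filled circles for libraries of over 10000000 counts and open squares for the others. The points run along a rising line from LA-Tg replicate 2 (26.1 and 1.28 CPM) to the replicate 1 libraries, and the genotypes are mixed along it.

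With all 7 members tested in ECs, none was called at an adjusted p under 0.05 in any of the 3 comparisons, and neither was any other miR (0% of 446). At an unadjusted p under 0.05 edgeR gave 6 miRs for Prog-Tg against WT, 3 for LA-Tg against WT and 3 for Prog-Tg against LA-Tg, which is 1.35%, 0.673% and 0.673% of those tested. Of the members miR-206-3p alone was among the 6. DESeq2 and limma-voom called no member either. In bulk samples a change in the number of cells of a type and a change in RNA per cell cannot be told apart.

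**Figure D3:**
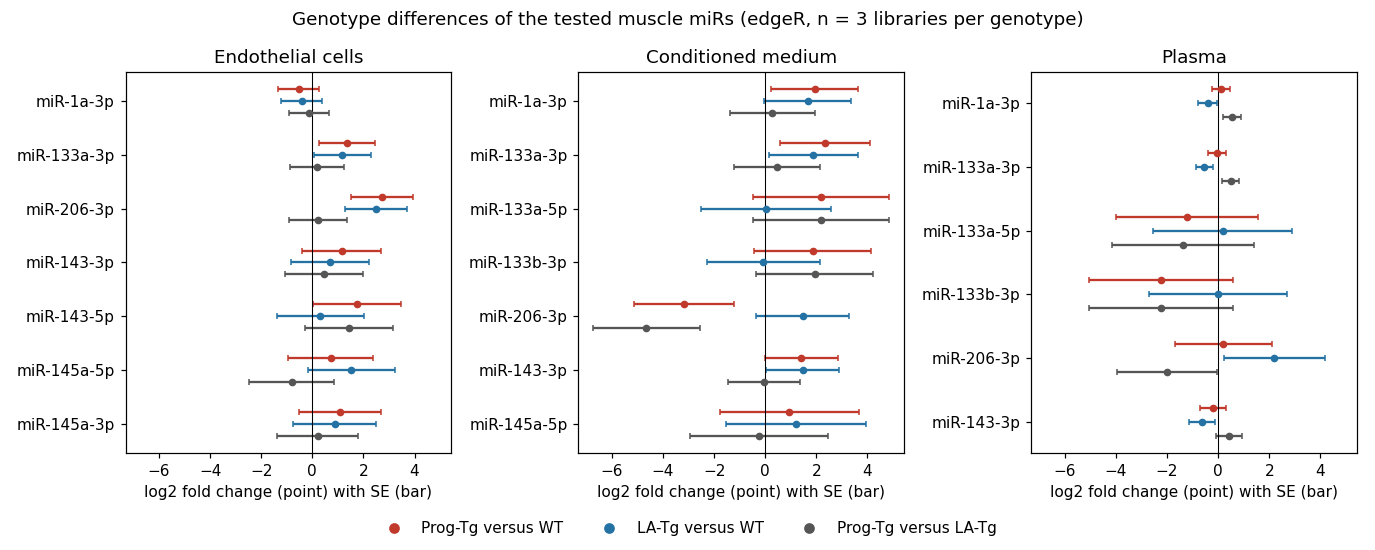
Log2 fold changes of the tested muscle miRs (points) with their SE (bars) in ECs, medium and plasma for Prog-Tg against WT, LA-Tg against WT and Prog-Tg against LA-Tg (edgeR, 3 libraries per genotype). The bars are widest in medium and for the low members of plasma. miR-206-3p lies at 2.72 in ECs and at −3.18 in medium for Prog-Tg against WT.

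In conditioned medium the striated miRs miR-1a-3p and miR-133a-3p differed more between libraries of 1 genotype than between genotypes. miR-1a-3p had 108340.0, 7815 and 24116 CPM in Prog-Tg, 98589.8, 15654 and 2176 CPM in LA-Tg, and 836, 35657 and 358 CPM in WT. miR-133a-3p, which regulates proliferation and growth of muscle cells, followed with 67927, 4487 and 11497 CPM in Prog-Tg, 52533, 7381 and 1410.2 CPM in LA-Tg, and 255, 16212 and 142 CPM in WT. The order of the 9 libraries was the same for both, with r = 1.00 and rho = 1. The highest library of each genotype was a library rich in miR-486, and miR-1a-3p and miR-486a-5p had r = 0.89 over the 9 libraries. Among the other libraries LA-Tg kept that order, and Prog-Tg and WT did not. The miR-486 features held 19.7% in Prog-Tg replicate 2 and 3.79% in replicate 3, and 0.807% in WT replicate 1 and 1.46% in replicate 3. miR-451a, a red blood cell miR, was at 0 in 6 of the 9 medium libraries and reached 604 CPM in LA-Tg replicate 1. The heart and slow muscle miRs miR-208b-3p and miR-499-5p took the same course, at 10.5 to 2734 CPM and 2.84 to 3025 CPM. The part of blood or muscle RNA in these libraries was not tested, and the culture medium contained foetal calf serum while medium without cells was not analysed here.

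Genotypes overlapped for these miRs in medium. miR-1a-3p averaged 46757 ± 53952 CPM in Prog-Tg, 38806 ± 52211 CPM in LA-Tg and 12284 ± 20244 CPM in WT (SD, n = 3 each). Its log2 fold change of Prog-Tg over WT was 1.93 (SE 1.72, adjusted p = 1.00 in edgeR). miR-133a-5p had 0 to 1485 CPM and miR-133b-3p 0 to 504 CPM, both highest in Prog-Tg replicate 1. Without the 3 libraries rich in miR-486, a setting chosen after the data were seen, the log2 fold change of miR-1a-3p was 4.66 (adjusted p = 0.23 in edgeR), on 2 libraries per genotype. miR-143-3p had 5677, 572 and 1806 CPM in Prog-Tg, 6868, 749 and 804 CPM in LA-Tg, and 20.1, 2754 and 275 CPM in WT. It was again highest where miR-486 was, and its log2 fold change of Prog-Tg over WT was 1.40 (SE 1.43, adjusted p = 1.00 in edgeR). miR-145a-5p was counted in 5 of 9 medium libraries, at up to 325 CPM.

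**Figure D4:**
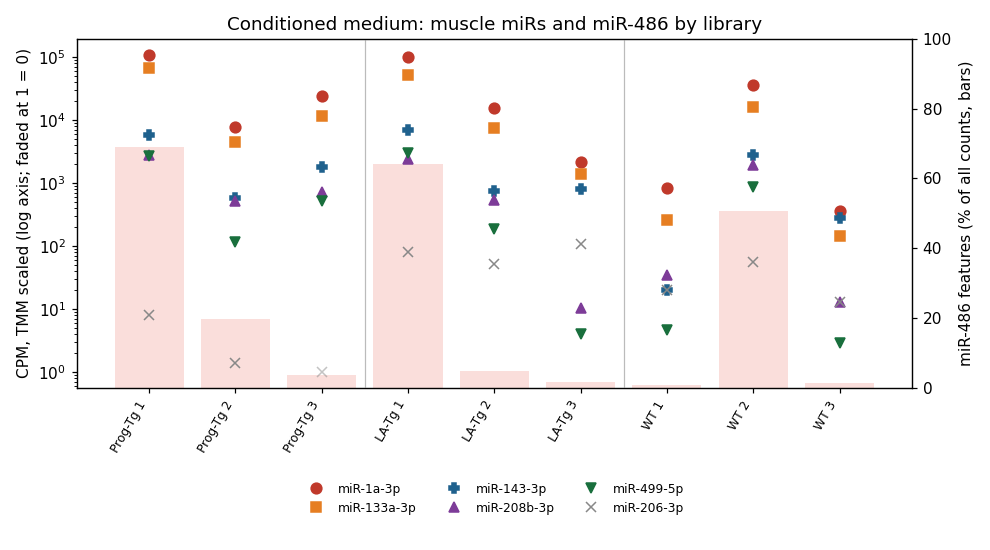
miR-1a-3p, miR-133a-3p, miR-143-3p, miR-206-3p, miR-208b-3p and miR-499-5p in the 9 medium libraries (points, CPM, left log axis, with a count of 0 drawn faded at 1) with the share of all counts held by the miR-486 features (bars, percent, right axis). The 3 libraries with tall bars, at 68.9, 64.2 and 50.6%, have the highest miR-1a-3p of their genotypes. miR-206-3p does not follow the bars.

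miR-206-3p did not follow the other striated miRs in medium. It had 8.13, 1.40 and 0 CPM in Prog-Tg, 81.5, 52.1 and 109 CPM in LA-Tg, and 20.1, 55.0 and 12.8 CPM in WT. Prog-Tg medium lay below both other genotypes without overlap, on 3, 1 and 0 reads, against 51, 16 and 83 reads in LA-Tg and 17, 21 and 9 in WT. A count of 0 allowed up to 4.89 CPM in Prog-Tg replicate 3. The log2 fold change of Prog-Tg over LA-Tg was −4.65 (SE 2.08, adjusted p = 0.85 in edgeR), and that of Prog-Tg over WT was −3.18 (SE 1.96, adjusted p = 1.00 in edgeR). Of all 255 miRs, 0.784% lay lower in Prog-Tg than in LA-Tg without overlap, and 5.10% lay lower in Prog-Tg than in WT. Without the 3 libraries rich in miR-486 these log2 fold changes were −6.65 and −4.25 (adjusted p = 0.48 and 0.64 in edgeR). Its log2 CPM had r = 0.02 with miR-1a-3p over the 9 libraries. The direction against WT in medium was opposite to that in ECs, and the difference between cells and medium was not tested because the kits and tables differ.

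With 7 members tested in medium, none was called in any of the 3 comparisons, and neither was any other miR (0% of 255) in edgeR. At an unadjusted p under 0.05 edgeR gave 4, 8 and 15 miRs for Prog-Tg against WT, LA-Tg against WT and Prog-Tg against LA-Tg, which is 1.57%, 3.14% and 5.88%. miR-206-3p was the member among the 15.

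In plasma miR-1a-3p and miR-133a-3p were among the most abundant miRs outside the miR-486 features, and after TMM scaling they varied less within Prog-Tg and WT than within LA-Tg. miR-1a-3p had 11419.8, 9921 and 9785 CPM in Prog-Tg, 5860.4, 4538 and 11204 CPM in LA-Tg, and 8553, 9758 and 10564 CPM in WT. The Prog-Tg libraries lay within or just above the WT range, and LA-Tg replicates 1 and 2 lay below all others. The groups averaged 10375 ± 907 CPM in Prog-Tg, 7201 ± 3529 CPM in LA-Tg and 9625 ± 1012 CPM in WT (SD, n = 3 each). The log2 fold change was 0.11 (SE 0.35, adjusted p = 0.99 in edgeR) for Prog-Tg over WT, −0.42 (SE 0.35, adjusted p = 1.00) for LA-Tg over WT and 0.53 (SE 0.35, adjusted p = 0.66) for Prog-Tg over LA-Tg. All 3 changed sign in fits with single libraries left out, where the filter and TMM factors were computed anew. They went as far as −0.17 for Prog-Tg over WT (without WT replicate 2). LA-Tg over WT went to 0.23 and Prog-Tg over LA-Tg to −0.10 (both without LA-Tg replicate 2). On the CPM above, which keep the scaling of all libraries, the group means keep their order in these cases, so these turns include the rescaling.

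The scaling decided the plasma result for miR-1a-3p. As CPM of the library total it had 21666, 19042 and 7195 in Prog-Tg, 8129, 3117 and 10001 in LA-Tg, and 10861, 6258 and 5668 in WT. Scaled by library size alone, it was the only miR of 118 called in edgeR in each of 2 comparisons, with a log2 fold change of 1.07 (adjusted p = 0.042) for Prog-Tg over WT and 1.17 (adjusted p = 0.0136) for Prog-Tg over LA-Tg. Under that scaling the median over all 118 miRs was itself shifted by 0.86 and 0.88, against −0.01 and 0.43 under TMM. miR-1a-3p thus exceeded the median miR by 0.21 and 0.30 under library size and by 0.11 and 0.09 under TMM on the log2 scale. TMM factors of the plasma libraries ran from 0.537 to 1.92.

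**Figure D5:**
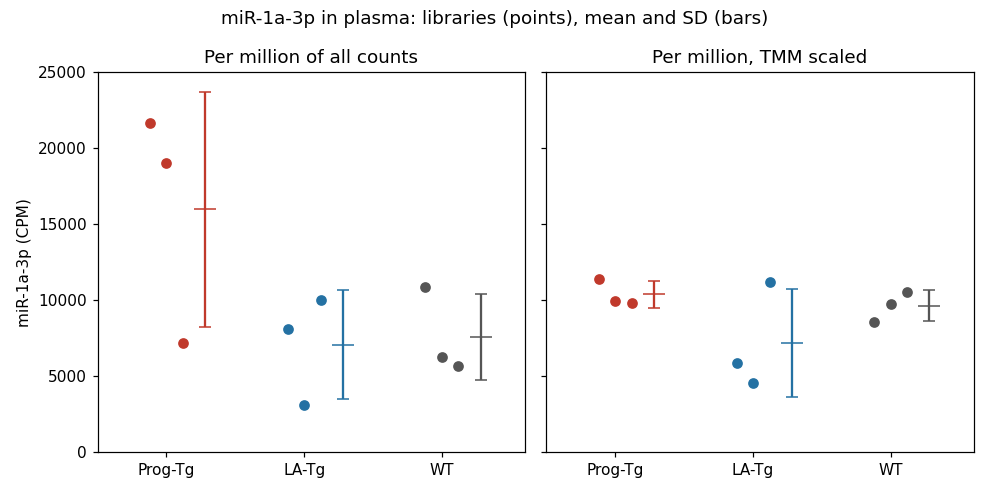
miR-1a-3p in the 9 plasma libraries (points) with the mean and SD of each genotype (bars), as CPM of the library total and as TMM-scaled CPM, both axes from 0. Under the library total Prog-Tg replicates 1 and 2 stand at 21666 and 19042 CPM above all others. Under TMM scaling the 3 Prog-Tg libraries lie at 9785 to 11419.8 CPM and the WT libraries at 8553 to 10564 CPM.

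miR-133a-3p had 4807, 5373 and 4451 CPM in Prog-Tg plasma, 3178, 2465 and 4755 CPM in LA-Tg, and 5249, 5069 and 4783 CPM in WT. Every LA-Tg library lay below every WT library, by a margin between 4755 and 4783 CPM, and 3.39% of all miRs did the same. The log2 fold change of LA-Tg over WT was −0.54 (SE 0.34, adjusted p = 0.92 in edgeR). Fits without LA-Tg replicate 1 or 2, with TMM factors computed anew, gave 0.0017 or 0.0624. On the CPM above LA-Tg stays below WT in both cases, so these turns include the rescaling. The log2 fold change of Prog-Tg over WT was −0.05 (SE 0.34, adjusted p = 0.99 in edgeR), and Prog-Tg and WT overlapped. The count of miR-1a-3p was 1.63 to 2.38 times that of miR-133a-3p in plasma and 1.54 to 3.28 times in medium.

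The lower members of plasma were unsteady within genotypes. miR-206-3p had 30.3, 34.5 and 45.5 CPM in Prog-Tg, 197, 243 and 0.751 CPM in LA-Tg, and 0.728, 58.6 and 36.4 CPM in WT. The Prog-Tg libraries were close to each other, while LA-Tg and WT each held a library below 1 CPM. The log2 fold change of Prog-Tg over WT was 0.21 (SE 1.89, adjusted p = 0.99 in edgeR). miR-143-3p had 576, 472 and 358 CPM in Prog-Tg, 266, 440.4 and 341 CPM in LA-Tg, and 611, 591 and 435 CPM in WT, with a log2 fold change of Prog-Tg over WT of −0.22 (SE 0.51, adjusted p = 0.99 in edgeR). miR-133b-3p had 7.27 to 15.9 CPM in Prog-Tg, 4.59 to 113 CPM in LA-Tg and 13.2 to 73.6 CPM in WT. miR-133a-5p was at 0 in 4 libraries and at 36.3 to 231 CPM in the other 5. miR-145a-5p, the partner of miR-143-3p, was counted in LA-Tg replicate 1 alone, with 107 reads, and both passenger strands of that locus had no read in plasma.

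With 6 members tested in plasma, none was called in the 3 comparisons, and neither was any other miR (0% of 118) in edgeR. At an unadjusted p under 0.05 edgeR gave 5, 5 and 6 miRs, which is 4.24%, 4.24% and 5.08%, with no member among them. DESeq2 called 19 miRs for Prog-Tg against WT, 9 for LA-Tg against WT and 14 for Prog-Tg against LA-Tg, again with no member among them.

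Plasma and medium shared a table and a library kit and were compared in 1 fit of 18 libraries, averaged over genotypes. TMM factors were computed over the 18 libraries together, so these fold changes need not follow the CPM given above for each fluid. Donor age, fluid and culture differ together between plasma and medium and cannot be told apart. Of 334 miRs tested, 47.3% were called, 5.39% higher and 41.9% lower in plasma, and of 7 members tested 4 were called. miR-206-3p was higher in plasma, with a log2 fold change of 5.19 (SE 1.14, adjusted p = 0.0013 in edgeR). miR-1a-3p and miR-133a-3p were higher in plasma too, by 1.99 (SE 0.76, adjusted p = 0.034) and 1.91 (SE 0.77, adjusted p = 0.045) on the log2 scale. miR-145a-5p was lower in plasma, at −6.90 (SE 2.22, adjusted p = 0.0146). That call rested on few libraries, and without LA-Tg medium replicate 1 its log2 fold change was −3.55 with an adjusted p of 1.00 in edgeR. miR-143-3p (1.51, adjusted p = 0.095), miR-133b-3p (2.18, adjusted p = 0.15) and miR-133a-5p (1.77, adjusted p = 0.48) were not called in edgeR. The median over all miRs was −3.53 in this fit and −6.51 under library size alone. Under library size alone miR-206-3p was at 1.66 with an adjusted p of 0.34 in edgeR and was not called, which left 1 member called, miR-145a-5p. In that setting miR-1a-3p, miR-133a-3p, miR-133a-5p, miR-133b-3p and miR-143-3p turned to −1.01, −1.04, −1.41, −0.67 and −1.58, all still above that median. The number of members called was 2 without LA-Tg plasma replicate 3 and 2 without Prog-Tg plasma replicate 3, where neither miR-1a-3p (adjusted p = 0.056 and 0.052 in edgeR) nor miR-133a-3p (0.066 and 0.067) was called. miR-133a-3p also lost its call without LA-Tg plasma replicate 1 or any 1 of the 3 WT plasma libraries, at adjusted p of 0.054 to 0.056 in edgeR. Without WT medium replicate 2 the number was 7, and miR-1a-3p and miR-133a-3p stood at 3.54 and 3.60 on the log2 scale.

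The genotype effect, Prog-Tg over WT, was also compared between the fluids. No member of 7 was called for the difference, and neither was any of 334 miRs (0%) in edgeR, with 16.8% of miRs at an unadjusted p under 0.05. The difference of log2 fold changes, plasma minus medium, was −1.66 (SE 1.81, adjusted p = 1.00 in edgeR) for miR-1a-3p and 3.58 (SE 2.43, adjusted p = 0.69 in edgeR) for miR-206-3p.

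The miRs whose log2 CPM ran most like the members were named by a fixed rule, the 3 highest Pearson correlations over 9 libraries, as a description of libraries that share depth and composition. In ECs miR-143-3p ran like miR-6540-3p (r = 0.96), miR-409-3p (0.95) and miR-485-3p (0.94), and miR-145a-5p like the same 3 miRs (0.94, 0.91 and 0.93). miR-206-3p ran like miR-669c-5p (0.93), miR-185-3p (0.90) and miR-466h-5p (0.88). In medium both miR-1a-3p and miR-133a-3p ran most like miR-1b-5p, miR-499-5p and miR-208b-3p, with r of 0.92 to 1.00, and miR-143-3p like miR-99a-5p (0.89), miR-203-3p (0.88) and miR-101a-3p (0.88). In plasma both ran most like miR-1b-5p, miR-378a-3p and miR-27b-3p (0.77 to 1.00), while no miR reached an r above 0.69 with miR-206-3p.

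Among other muscle miRs, miR-208b-3p and miR-499-5p were higher in the fluids than in ECs, with no test between the tables. miR-208b-3p had no read in ECs, 984 CPM in medium and 223 CPM in plasma on average. miR-499-5p, which lies within a slow myosin gene, had 0.774 CPM in ECs, 827 CPM in medium and 202 CPM in plasma. In the fit of 18 libraries miR-208b-3p and miR-499-5p were higher in plasma than in medium, by 1.54 and 1.80 on the log2 scale. Neither was called (adjusted p = 0.16 and 0.15 in edgeR), and under library size alone they were at −1.40 and −0.97. miR-378a-3p, which is made from the gene of the coactivator PGC-1beta and is not limited to muscle, had 409.7 CPM in ECs, 2719 CPM in medium and 641 CPM in plasma. miR-1b-3p and miR-145b had 1.48 and 0.136 CPM in ECs and no read in either fluid. A count of 0 allowed at least 3.54 CPM in each medium library and up to 0.281 CPM in plasma. A single medium library could therefore miss both levels, and some plasma libraries that of miR-145b, so no direction is read from these values.

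The EC mRNA libraries were read for cells that normally make these miRs. The endothelial markers Cdh5 and Pecam1 had 1469 to 4040.0 CPM and 1164 to 2332 CPM. The 12 smooth muscle and pericyte markers summed to 343 to 428 CPM in Prog-Tg, 338 to 886 CPM in LA-Tg and 455 to 563 CPM in WT, and most of it was Smtn, which is not limited to smooth muscle, at 185 to 466 CPM. The defining smooth muscle genes were lower. Acta2, smooth muscle actin, had 9.22, 32.6 and 46.3 CPM in Prog-Tg, 0.311, 49.3 and 194 CPM in LA-Tg, and 0.701, 27.1 and 40.7 CPM in WT. Myh11, smooth muscle myosin, had 0.104 to 13.6 CPM. Acta2 was lowest in replicate 1 of each genotype, which is the replicate with the highest miR-143-3p in the miR libraries, and the labels do not say that miR and mRNA libraries of a number are the same culture. Acta2 had a log2 fold change of Prog-Tg over WT of 0.37 (SE 1.65, adjusted p = 0.96 in edgeR). Carmn, the host transcript of miR-143 and miR-145a, had 0 to 0.25 CPM, and Mir133a-1hg had no read in any library. Mib1, the gene that holds the second pair of miR-1a and miR-133a loci, had 257 to 364 CPM. The 16 striated muscle markers summed to 4.61 to 10.996 CPM, with Tnnt2, cardiac troponin T, at no more than 7.88 CPM. The 9 fibroblast markers summed to 152 to 870.5 CPM in Prog-Tg, 23.7 to 640.4 CPM in LA-Tg and 114 to 466 CPM in WT. The part of other cell types in the levels of the members was not tested.

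Of 13 listed transcription factors that drive these miRs in muscle, 11 were in the gene table, 10 had a count and 8 were tested, and 2 or 3 of the 11 were at 0 in each library. None of the 8 was called by edgeR. Among the most abundant, Mef2a had 372 to 603 CPM and Tead1 132 to 294 CPM. Srf, which was named in advance and not for its level, had 35.0 to 63.1 CPM. Of the miR processing genes, 6 tested, Ago2 had 218, 216 and 249.7 CPM in Prog-Tg, 189, 207 and 148 CPM in LA-Tg and 221, 234 and 239 CPM in WT. All 3 LA-Tg libraries lay below all 3 WT libraries for Ago2 and Dgcr8, 2 of the 6, as did 2.03% of all genes tested. Neither gene was called, and all 6 had a log2 fold change of LA-Tg over WT below 0. Dicer1, which cuts the miR hairpin, had 88.1 to 140.4 CPM.

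Messages studied as targets of the muscle miRs did not differ by genotype in a way that passed the test. Of 11 targets of miR-1 and miR-206 tested, 5 had a higher and 6 a lower mean in Prog-Tg than in WT, with a median log2 fold change of −0.02 against −0.01 over all 14584 genes. Of 8 targets of miR-133, 5 were higher and 3 lower, with a median of 0.12. Of 12 targets of miR-143 and miR-145, 5 were higher and 7 lower, with a median of −0.11. Klf4, a target of miR-145 and a brake on the contractile state, had 178, 447 and 145.5 CPM in Prog-Tg, 276, 431 and 389 CPM in LA-Tg and 201, 529.6 and 288 CPM in WT, with a log2 fold change of Prog-Tg over WT of −0.40 (SE 0.49, adjusted p = 0.86 in edgeR). Gja1, connexin 43 and a target of miR-1 and miR-206, had 284 to 431 CPM in Prog-Tg, 308 to 477 CPM in LA-Tg and 355 to 397 CPM in WT.

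Over all lists, 78 genes were tested and none was called in any of the 3 comparisons, and neither was any of the 14584 genes (0%) in edgeR. At an unadjusted p under 0.05 there were 3 list genes for Prog-Tg against WT, 2 for LA-Tg against WT and 1 for Prog-Tg against LA-Tg, beside 3.40%, 0.830% and 1.71% of all genes. They were Hspd1, Add3 and Srgap1, then Ace and Ago2, then Dcn, and were named after their values were seen. Hspd1, a mitochondrial chaperone and a target of miR-1, had 134 ± 21.3 CPM in Prog-Tg and 103 ± 2.66 CPM in WT (SD, n = 3 each), with a log2 fold change of 0.38 (SE 0.17, adjusted p = 0.83 in edgeR). Add3, a membrane skeleton protein and a target of miR-145, had 89.4 ± 36.3 CPM in Prog-Tg and 213 ± 101 CPM in WT, with a log2 fold change of −1.25 (SE 0.54, adjusted p = 0.83 in edgeR). Srgap1, a regulator of actin, had 63.9 ± 11.9 CPM in Prog-Tg and 91.2 ± 16.98 CPM in WT, with a log2 fold change of −0.51 (SE 0.22, adjusted p = 0.83 in edgeR). All 3 had groups that did not overlap, which their choice by p favours and which therefore adds nothing. Of the 78 list genes, 7 had groups that did not overlap in that comparison, beside 13.7% of all genes.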

How the data were processed

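Raw counts of reads per miR and per gene were deposited by the authors, who aligned reads to GRCm38 with STAR 2.5.1b in the 2-pass mode and counted them with HTSeq 0.5.4p3, as the submitters' processing notes and the study's methods give it. The study normalised with edgeR and limma in R 3.3.2. EC miR libraries were made with a QIAseq kit and fluid libraries with a CleanTag kit, and no collapsing by molecular identifier is described for the counts. Reads of identical or overlapping loci can enter several features. The authors' 10 tables of fold changes and p-values were not used, and 0 columns were left without a sample.

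For the values given here, R 4.3.3 was used. The counts went into edgeR 4.0.16 (filterByExpr with a minimum count of 10 and a minimum total of 15, TMM factors, quasi-likelihood test, Benjamini-Hochberg adjustment over all miRs or genes kept, threshold 0.05). Each data set was fitted on its 9 libraries, 3 per genotype, and plasma and medium were also fitted together on 18. CPM and fold changes are on the TMM scale, a count of 0 was read as up to 3 counts, and intervals cover counting error only. Group and replicate were taken from the labels. The fit was tested on simulated data with large changes, 1 fixed spread and only features of higher mean count. That test does not cover the wide spread and the 0 counts of the members in medium and plasma. Alternatives were DESeq2 1.42.0, limma-voom (limma 3.58.1), RLE factors, library size alone, every miR or gene kept, a raised limit (3 libraries over 10 CPM for miRs, or over 1 CPM for mRNA), a fit of the 2 groups alone, the replicate block, each library left out, identical miRs collapsed and blood cell miRs left out. The run of library numbers as a term, the features with shared reads left out and the medium fit without the 3 libraries rich in miR-486 were chosen after seeing the data. The members and gene lists were chosen with earlier results of these data known. Named beside all members were the 3 miRs most correlated with each of the most abundant members, at most 4 a data set, the other muscle miRs with a count, and of each gene list the 4 most abundant genes plus Acta2, Tagln, Myh11, Srf, Klf4, Klf5, Gja1 and Hdac4, of which a selection is printed.

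Replicate numbers recur in each genotype, and the labels do not say that a number marks a litter or day. After the group means were taken off, libraries that share a number all correlated above 0.1 in EC miR for Prog-Tg with WT (0.43 to 0.65) and Prog-Tg with LA-Tg (0.56 to 0.73), in EC mRNA for Prog-Tg with LA-Tg (0.35 to 0.67) and in medium for Prog-Tg with LA-Tg (0.107 to 0.457), and not in the other comparisons. That pairing comes from the values alone.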

Additional observations from a re-analysis of the deposited data

Results flagged for a closer look

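The fitted differences of miR-206-3p had opposite signs in ECs and in conditioned medium. All 3 Prog-Tg EC libraries lay above all 3 WT EC libraries, with a log2 fold change of 2.72, and all 3 Prog-Tg medium libraries lay below all 3 WT medium libraries, with a log2 fold change of −3.18 (edgeR, 3 libraries per genotype). Without overlap in the same direction lay 1.79% of 446 miRs in ECs and 5.10% of 255 miRs in medium. Neither difference was called (adjusted p = 0.96 in ECs and 1.00 in medium, edgeR), and the difference between cells and medium was not tested, because the kits and tables differ. In ECs the nearest Prog-Tg and WT libraries stood at 21.2 and 21.1 CPM, the log2 fold change was 1.65 in the fit with the replicate block and 1.36 when Prog-Tg replicate 3 was left out, and LA-Tg against WT gave 2.51. The labels do not tie a medium library to an EC library. The values rest on 5 to 2695 reads a library in ECs and on 0 to 21 reads in Prog-Tg and WT medium.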

How the results depend on the processing

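Over 60 genotype comparisons of single members, 43 changed sign under at least 1 alternative and 17 did not. For Prog-Tg against WT, LA-Tg against WT and Prog-Tg against LA-Tg these were 5, 4 and 7 of 7 members in ECs, 2, 6 and 5 of 7 in medium and 4, 5 and 5 of 6 in plasma. Of the 60, 2 were called in any alternative, both miR-1a-3p in plasma under library size alone, which raised the members called for Prog-Tg against WT and for Prog-Tg against LA-Tg to 1 from 0. miR-206-3p kept its direction in all alternatives run for Prog-Tg against WT in ECs (1.36 to 3.41) and in medium (−4.98 to −2.40), and for Prog-Tg against LA-Tg in medium (−6.65 to −4.04). With the replicate block 0 members were called in every genotype comparison, as without it, and miR-206-3p in ECs was at 1.65 for Prog-Tg against WT.

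Of the log2 fold changes given above, those that turned with a setting were these. In ECs miR-145a-5p for Prog-Tg against WT was −1.07 with the library-number run as a term. In plasma for Prog-Tg against WT, miR-133a-3p (−0.05) was 0.0169 with DESeq2, 0.0170 with RLE factors, 0.86 under library size alone, 0.0157 with identical miRs collapsed and 0.0545 with the shared-read features left out, and miR-143-3p was 0.71 under library size alone. miR-1a-3p in plasma was 0.0836 with no filter for LA-Tg against WT and −0.0220 in the fit of the 2 groups alone for Prog-Tg against LA-Tg. Between plasma and medium, library size alone left 1 member called instead of 4 and gave miR-1a-3p −1.01, miR-133a-3p −1.04, miR-133a-5p −1.41, miR-133b-3p −0.67 and miR-143-3p −1.58. miR-208b-3p and miR-499-5p, which are not members, turned to −1.40 and −0.97 in that setting. The cause was not tested.

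With 1 library left out, Prog-Tg against WT in ECs ran from −1.21 to 2.31 for miR-143-3p, −1.37 to 1.63 for miR-145a-5p, −0.99 to 0.0033 for miR-1a-3p, −1.07 to 0.0670 for Klf4 and −0.20 to 1.09 for Acta2, and Prog-Tg against LA-Tg from −1.11 to 2.44 for miR-206-3p. In plasma the ranges were −0.17 to 0.15 (miR-1a-3p) and −0.47 to 0.61 (miR-206-3p) for Prog-Tg against WT, −0.50 to 0.23 (miR-1a-3p) and −0.51 to 0.0624 (miR-133a-3p) for LA-Tg against WT, and −0.10 to 0.39 (miR-1a-3p) for Prog-Tg against LA-Tg. Between plasma and medium 2 to 7 members were called, and miR-133a-5p ran from −2.18 to 5.44. Each fit with 1 library left out filtered and scaled the remaining libraries anew, so these ranges include changes of scaling. Depth limits medium most, where 0 counts allow up to 9.77 CPM.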
